A study of Sus scrofa with 24 samples.

Results

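Gene expression in female embryos at day 30 of gestation was compared between pig embryos whose dams were managed under the strategy that the labels call IS21FE and pig embryos of control dams. The comparison comprised 6 of the 24 two-colour arrays of the series, chosen by their labels, and gave ratios for 7354 genes. All dams were primiparous sows, which had farrowed a single litter. Oestrus during lactation was induced by intermittent suckling and sows were mated by a strategy called IS21FE or IS21SE, letters that the labels do not spell out; control sows are called C28. The sources used here do not give the breed, age or weight of the sows. Each of the 3 replicates paired a pool of 3 female embryos of an IS21FE sow with a female pool of a control sow on the same array, and was hybridized again with the dyes exchanged. By the labels' count of 6 control sows and 3 sows of each strategy, every replicate had a control pool of its own. Ratios from whole embryos cannot tell fewer cells of a type from less RNA per cell. Both channels of an array were labelled female, so ratios could show a mismatch in sex between channels but not the sex of both. Such a mismatch was not tested.

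At this stage the pig embryo has formed its organ primordia, the liver is making plasma proteins and red cells, muscle is differentiating and cartilage models of the skeleton are being laid down. The embryo is attached to the uterus by a placenta that does not invade it, and the uterine glands supply much of its nutrition. Suckling acts on the hormones and metabolism of the dam, and normally holds back oestrus until weaning.

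Ratios are given as log2 of IS21FE over control, under the reading that each deposited column holds Cy5 over Cy3. For this reason the sign was turned on the arrays that carried control RNA in Cy5. The deposited values do not state this order, so a ratio is called positive or negative here. A positive ratio means more RNA in IS21FE pools if this order holds, and less RNA if the order is Cy3 over Cy5. If the swapped columns had already been turned by the authors, averaging would remove the effects of the strategy. The arrays themselves gave little common signal under this reading. Spearman's rho across the 7354 genes between the arrays of a replicate, after turning, was -0.00021 in replicate 1, -0.20 in replicate 2 and -0.11 in replicate 3. Genes are not independent replicates, so these are descriptions. The arrays with IS21FE RNA in Cy5 of replicates 1 and 3 stood apart: as deposited their probes correlated with each other (rho = 0.62) and with an array of female IS21SE pools (0.58 and 0.62). With the array of the same orientation in replicate 2 they correlated at 0.14 and 0.16. Values without these 3 arrays are given below for the counts and for some families and genes. A family given without such a value is not thereby unmoved. Of these 3 arrays, those from female IS21FE pools both had IS21FE RNA in Cy5. Without these arrays replicates 1 and 3 rested on arrays with control RNA in Cy5 alone, so the dyes were no longer balanced. Whether a value moved with these arrays or with the dye cannot be told apart.

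No gene passed the test of female IS21FE pools against control. In limma's moderated fit, 0 of 7354 genes (0.0%) had an adjusted p under 0.05, and the lowest adjusted p was 0.364. The unadjusted p was under 0.05 for 757 genes, of which 512 (6.96%) had positive and 245 (3.33%) had negative ratios. Ratios were small against their spread: the median absolute ratio was 0.14, and the median SD over the 3 replicates was 0.21. An absolute ratio of at least 1, which is a factor of 2, was measured for 31 genes, 4 positive and 27 negative, and 5 of these had the same sign on all 6 arrays. Ratios were positive for 4573 genes (62.2%) and negative for 2781 (37.8%), with a median of 0.058 over all genes.

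That positive side moved with single arrays and with the choice of probes. Median ratios over all genes were 0.087, -0.020 and 0.11 in replicates 1, 2 and 3. Without the arrays that stood apart, the median was 0.0077. When genes with blank values in 1 replicate were kept, 504 of 962 genes at an unadjusted p under 0.05 were positive. Without replicate 1 the count at an unadjusted p under 0.05 was 413, of which 305 were among the 757, and without replicate 3 it was 424, of which 312 were among them. Used as deposited, with no array turned, 1849 genes lay at an unadjusted p under 0.05, and 147 of them were among the 757.

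Genes with the same sign on all 6 arrays numbered 297 on the positive side (4.04%) and 111 on the negative side (1.51%). The mean over the arrays with IS21FE RNA in Cy5 and the mean over those with control RNA in Cy5 had opposite signs in 57.9% of genes. Across genes the 2 means had a Spearman's rho of -0.21.

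**Figure D1:**
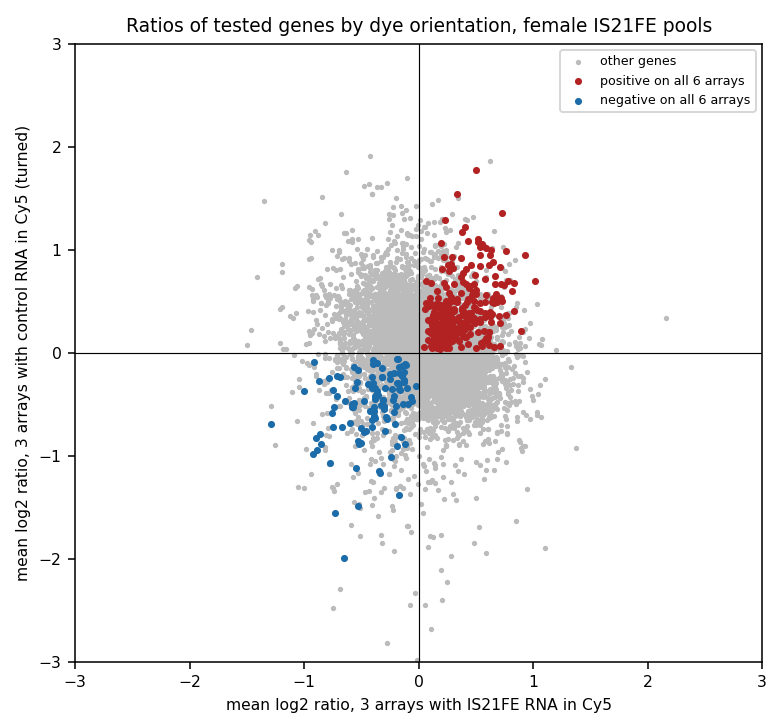
Mean log2 ratio of each of the 7354 genes on the 3 arrays with IS21FE RNA in Cy5 (x axis) against the 3 arrays with control RNA in Cy5 after turning (y axis), in female IS21FE pools. Red points are the 297 genes positive and blue points the 111 genes negative on all 6 arrays, and the grey cloud leans towards opposite signs; 1 gene lies beyond the axes.

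The 30 genes with the smallest p, passing over locus identifiers, all had an adjusted p of 0.364 and are given as values only. Of these, 20 were positive and 10 were negative, with absolute ratios from 0.44 to 1.14. All 30 had the same sign in the 3 replicates, 17 had it on all 6 arrays, and each rested on a single probe. Leaving out the arrays that stood apart changed the sign of none of the 30, and with no array turned 20 of them had the other sign. The 30 were chosen by p on these same replicates, so the agreement of their signs is no check. All 30 had means of the same sign on both dye orientations. With no array turned their sign thus gives only which orientation had the larger absolute mean. Of all 234 genes that the naming rules select, 13 had the other sign without the arrays that stood apart. Without those arrays 91 moved by more than their SD over replicates.

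Genes of protein breakdown and the cell cycle were among them. FBXL8, a substrate adaptor of ubiquitin ligases, had ratios of 0.58, 0.84 and 0.94 in replicates 1, 2 and 3, which were positive on all 6 arrays (0.79 ± 0.18, SD, n = 3). FBXO4, another F-box adaptor, had 0.93, 0.47 and 0.73 (0.71 ± 0.23, SD, n = 3), again positive on all 6 arrays. UBXN2B, a cofactor of the ATPase p97, had 0.71, 0.47 and 0.76, and its array of replicate 2 with IS21FE RNA in Cy5 was negative. CDKN2B, an inhibitor of the cyclin D kinases, was negative on all 6 arrays, with -0.96, -0.95 and -0.58 in the replicates (-0.83 ± 0.22, SD, n = 3). CDC20, an activator of the anaphase-promoting complex, had -0.45, -0.50 and -0.37, a narrow range over replicates, although 1 array was positive. ERCC5, an endonuclease of nucleotide excision repair, had 0.82, 0.50 and 0.53 (0.62 ± 0.17, SD, n = 3).

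Signalling genes on the positive side included SKIL, a repressor of SMAD signalling. SKIL had 0.66, -0.25 and 0.61 on the arrays of replicates 1, 2 and 3 with IS21FE RNA in Cy5, and 0.35, 2.08 and 0.78 on those with control RNA in Cy5. The arrays of replicate 2 thus had opposite signs, and its mean was the highest of the replicates. FZD10, a receptor of WNT ligands, had 0.68, 0.26 and 0.52 on arrays with IS21FE RNA in Cy5 and 0.28, 0.75 and 0.29 on arrays with control RNA in Cy5, all positive (0.46 ± 0.053, SD, n = 3). PARVB, which links integrins to actin, was positive on all 6 arrays (0.62 ± 0.23, SD, n = 3). IL10RA, the ligand-binding chain of the interleukin 10 receptor, was negative on all 6 arrays, with -0.61, -0.70 and -0.61 in the replicates. CD72, a receptor of B cells, was positive on all 6 arrays (0.55 ± 0.081, SD, n = 3), higher on the arrays with IS21FE RNA in Cy5 (0.89, 0.97 and 0.83) than on the others (0.22, 0.30 and 0.11). C8B, a chain of the terminal complement complex, had 0.66, 0.43 and 0.65.

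Enzymes and secreted proteins were found on both sides. HSD17B1, which reduces oestrone to oestradiol, had -0.64, -0.62 and -0.64, a spread of 0.014 (SD, n = 3). Its single arrays spread more widely, with -0.43, -0.66 and -1.13 with IS21FE RNA in Cy5 and -0.85, -0.57 and -0.15 with control RNA in Cy5, all negative. DHRS11, a short-chain dehydrogenase, had -0.63, -0.74 and -0.57, and 1 of its arrays was positive. CSN1S1, a casein of milk, was negative on all 6 arrays (-0.92 ± 0.11, SD, n = 3), whereas LPO, a peroxidase of milk and other secretions, was positive in the replicates (1.02, 0.83 and 0.79) and negative on 1 array. COL8A2, a short-chain collagen, was negative on all 6 arrays, with -0.95, -0.96 and -0.67 in the replicates (-0.86 ± 0.16, SD, n = 3). COPA, a subunit of the coat of Golgi vesicles, had -0.58, -0.37 and -0.64. SLC28A2, a nucleoside transporter, had 0.83, 0.44 and 0.41.

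Genes of the nervous system, the circadian clock and RNA metabolism completed the set. BHLHE22, a transcription factor of neurons, had the largest absolute ratio of the 30, with -1.50, -0.77 and -1.16 in the replicates and negative values on all 6 arrays (-1.14 ± 0.36, SD, n = 3). ASTN1, which guides migrating neurons along glia, was positive on all 6 arrays, but its replicate 2 (1.59) stood above replicates 1 and 3 (0.89 and 0.67). RIMKLA, a ligase that makes N-acetylaspartylglutamate, was positive on all 6 arrays (0.61 ± 0.19, SD, n = 3). PER2, a repressor of the circadian clock, was negative on all 6 arrays, with -0.62, -0.91 and -0.54 in the replicates. METTL16, an RNA methyltransferase, had 1.12, 0.67 and 0.69, and DNAJC21, a cochaperone of ribosome assembly, had 0.63, 0.57 and 0.40. LYRM7, an assembly factor of respiratory complex III, had 0.47, 0.71 and 0.51. A probe annotated to the microRNA gene MIR139 had 1.30, 0.51 and 1.02; which transcript it reads is not given in the sources used here. TMEM81 (0.70), FAM89B (0.62) and FAM151B (0.57) were positive. The mean of LYRM7 without the arrays that stood apart was 0.26, against 0.57 with them, and that of CD72 was 0.32, against 0.55.

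**Figure D2:**
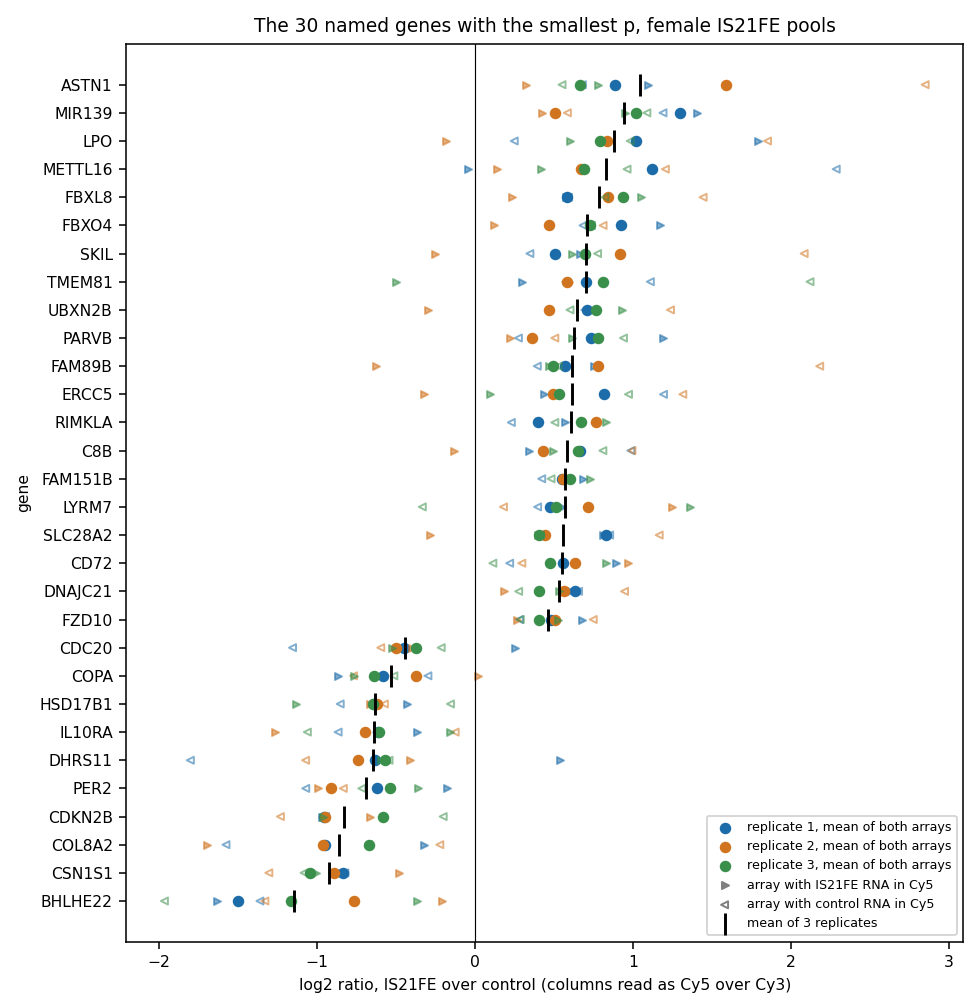
Log2 ratios of the 30 genes with the smallest p in female IS21FE pools, 1 gene a row. Filled circles are the 3 replicates, triangles the single arrays by dye orientation and black bars the means; the replicates of each gene lie on the same side of 0, while single arrays of 13 genes cross it.

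Genes with the largest ratios of the same sign on all 6 arrays often had 1 replicate far above or below the others. On the negative side, ISX, an intestinal homeobox factor, had -2.43, -0.74 and -0.80 in replicates 1, 2 and 3, and its array of replicate 1 with control RNA in Cy5 was at -3.92. PDE4B, a phosphodiesterase of cyclic AMP, had -1.67, -0.50 and -0.87, VASH1, an inhibitor of angiogenesis, had -1.53, -0.34 and -0.75, and PFKFB2, which sets the level of a glycolytic activator, had -1.03, -0.18 and -1.28. Replicate 1 was the most negative in ISX, PDE4B and VASH1, as it was in BHLHE22 above and GPR108 below. CDH7, a cadherin of the neural crest, had -0.51, -1.52 and -0.84, ZNF287, a zinc finger protein, had -1.05, -1.55 and -0.37, and GPR108 had -1.33, -1.01 and -0.41. On the positive side, RIMS3, a presynaptic protein, had 1.23, 1.92 and 0.27, and KITLG, the ligand of the receptor KIT on germ cells, melanoblasts and blood precursors, had 0.67, 0.55 and 1.59. ADPRH, a hydrolase that removes ADP-ribose from proteins, was even over replicates (0.94, 0.73 and 0.96). ZNF558 (0.86 ± 0.29), ST7 (0.82 ± 0.54), ATAD2B, a bromodomain protein (0.81 ± 0.29), CAMSAP1, which caps microtubule minus ends (0.81 ± 0.32), and PRDM1, a repressor needed for primordial germ cells (0.81 ± 0.31; SD, n = 3 each), were also positive. Only BHLHE22, CSN1S1, COL8A2, MIR139 and ASTN1 of these 20 genes were among the 30 with the smallest p.

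Functional families were described by counts of their tested members, against 62.2% positive ratios and a median of 0.058 over all genes. No member of any of the 54 families passed an adjusted p of 0.05 in limma. Of the family medians 39 were at or above 0 and 15 below it. In 25 families the median had opposite signs on the 2 dye orientations. Without the arrays that stood apart 19 family medians had the other sign, among them integrins (-0.061 with and 0.064 without those arrays) and gonad genes (0.16 with and -0.017 without).

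Among families of protein synthesis, cytosolic ribosomal protein genes lay low: 39 of 49 tested genes were negative, with a median of -0.080. Replicate medians were -0.15, 0.022 and -0.13 for replicates 1, 2 and 3. The median was 0.060 with IS21FE RNA in Cy5 and -0.20 with control RNA in Cy5, so the sign depended on the dye orientation, with no array turned the median was 0.14, and without the arrays that stood apart it was -0.17. RPL10A, of the large subunit, was negative on all 6 arrays (-0.22 ± 0.052, SD, n = 3), the single member of which this held. RPS19, of the small subunit, had -0.24 ± 0.21 (SD, n = 3). Mitochondrial ribosomal protein genes were positive in 41 of 53 genes, with a median of 0.087 and replicate medians of 0.12, 0.085 and 0.095. That median too was 0.18 with IS21FE RNA in Cy5 and -0.017 with control RNA in Cy5, and it was 0.014 without the arrays that stood apart. MRPS35 (0.32 ± 0.13) and MRPS31 (0.23 ± 0.049; SD, n = 3 each), both of the small subunit, had low p, and MRPS31 was positive on all 6 arrays. Subunits of the respiratory chain were positive in 26 of 47 genes, with SDHB (0.32 ± 0.084) and SDHD (0.27 ± 0.046; SD, n = 3 each), both of complex II, positive on all 6 arrays. Their median of 0.022 was 0.21 with IS21FE RNA in Cy5, -0.17 with control RNA in Cy5 and -0.10 without the arrays that stood apart. Splicing factors were positive in 31 of 46 genes, with LUC7L3, a factor of splice site choice, at 0.49 ± 0.20 and SNRPA1, a protein of the U2 particle, at 0.29 ± 0.12 (SD, n = 3 each), both positive on all 6 arrays.

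Collagen, other matrix and cadherin families had medians below 0. Of 21 collagen chains 14 were negative, with a median of -0.13 and replicate medians of 0.080, -0.23 and -0.095. Besides COL8A2, only COL4A2 of basement membranes was negative on all 6 arrays (-0.19 ± 0.11, SD, n = 3). COL1A2, a chain of type I collagen, had -0.30, -0.26 and -0.48 in replicates 1, 2 and 3, and COL1A1, its partner chain, had -0.085, -0.34 and -0.095, with 3 of 6 arrays positive. Of the other matrix genes 20 of 28 were negative, with a median of -0.037. The small proteoglycans DCN and OGN, which bind collagen fibrils, had -0.28 ± 0.11 and -0.29 ± 0.13 (SD, n = 3 each). Of the matrix proteases and inhibitors 10 of 14 were positive, with a median of 0.048 that was -0.099 without the arrays that stood apart. MMP2, which cleaves basement membrane, had -0.31 ± 0.15 (SD, n = 3). Cadherins and protocadherins were negative in 8 of 11 genes, with a median of -0.030, and PCDH17 had -0.31 ± 0.18 (SD, n = 3). Replicate medians lay below those of all genes in all 3 replicates in 12 of the 54 families, and above them in 3. The collagen, other matrix and cadherin families were among the 12. In replicate 1 the collagen median was positive and lay close to that of all genes (0.080 against 0.087).

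Liver genes had the highest median of the 54 families, and it depended on replicate 1. Of 43 tested genes 33 were positive, with a median of 0.17, but the replicate medians were 0.41, -0.020 and 0.048. Without replicate 1 the median was 0.0083, with no array turned it was -0.13, and without the arrays that stood apart 0.28. ALB, which encodes albumin, had 0.98, 0.33 and 0.88 in replicates 1, 2 and 3, and ITIH2, a carrier of hyaluronan in plasma, had 1.05, 0.29 and 0.29. APOH, a phospholipid-binding plasma protein, had 1.05, 0.23 and 0.31. HPX, which binds free heme, and TAT, which breaks down tyrosine, were the members positive on all 6 arrays (0.42 ± 0.22 and 0.29 ± 0.052, SD, n = 3 each). The fetal albumin AFP had 0.14 ± 0.51 (SD, n = 3).

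Red cell genes were spread around the median of all genes. TAL1, a transcription factor of blood and endothelial precursors, was even and positive on all 6 arrays, with 0.66, 0.64 and 0.77 in replicates 1, 2 and 3. HBE1, an embryonic globin, was negative on all 6 arrays (-0.38 ± 0.25, SD, n = 3), whereas HBZ, the embryonic alpha-like globin, had 0.00071 ± 0.59 (SD, n = 3). Of the 23 tested genes 15 were positive. Endothelial genes were positive in 13 of 22 genes, with ENG, a coreceptor for TGF-beta, at -0.43 ± 0.19 and EMCN, a sialomucin of venous endothelium, at 0.28 ± 0.17 (SD, n = 3 each). Without the arrays that stood apart the median was -0.0055 for red cell genes, against 0.020 with them, and -0.063 for endothelial genes, against 0.030.

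In the skeletal muscle family 11 of 21 tested genes lay below 0, with a median of -0.034. In all 3 replicates 4 were positive and 7 negative, against 1856 and 826 of 7354 genes. Without the arrays that stood apart the median was -0.13. Negative ratios included the fast myosin light chain MYLPF (-0.25, -0.18 and -0.30 in replicates 1, 2 and 3), the thick filament protein MYBPC1 (-0.22 ± 0.079) and skeletal actin ACTA1 (-0.16 ± 0.019; SD, n = 3 each). The glycolytic enzyme of muscle ENO3 had -1.31, -0.052 and -0.30. The myogenic regulators MYOD1 (0.28 ± 0.21), MYOG (0.22 ± 0.16) and MYF6 (0.093 ± 0.26; SD, n = 3 each) were positive in their means, but MYOD1 was at -0.0036 without the arrays that stood apart. No muscle gene had the same sign on all 6 arrays. Among 21 genes that is near the share over all genes, 4.04% positive and 1.51% negative. Heart genes were positive and negative in 9 of 18 each, with the natriuretic peptide NPPA positive (0.29 ± 0.10) and the pacemaker channel HCN4 negative (-0.23 ± 0.17; SD, n = 3 each) on all 6 arrays.

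Cilium and centrosome genes were positive in 36 of 48 genes. The family was gathered by symbol, and 19 of its members are TTC genes, named for a tetratricopeptide repeat, several of which are not known for a role in cilia. Without them 22 of 29 genes were positive, with a median of 0.16. The median of all 48 genes was 0.14, with replicate medians of 0.083, 0.094 and 0.17 in replicates 1, 2 and 3. For these 48 it was 0.084 on arrays with IS21FE RNA in Cy5 and 0.16 on arrays with control RNA in Cy5. Without the arrays that stood apart it was 0.13, and with no array turned -0.042. DYNC2LI1, of the motor for retrograde transport in cilia, had 0.32, 0.45 and 0.98, CEP63, a centrosome protein, had 0.70, 0.28 and 0.17, and TTC8, of the BBSome, had 0.27, 0.29 and 0.34; these 3 were positive on all 6 arrays, and TTC17, one of the TTC genes (-0.23 ± 0.13, SD, n = 3), was negative on all 6. GAS8, of the axonemal regulatory complex, had -1.28, -0.23 and -0.31. At an unadjusted p under 0.05, 3 members were positive and 2 negative, out of 48, near the 6.96% and 3.33% of all genes.

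**Figure D3:**
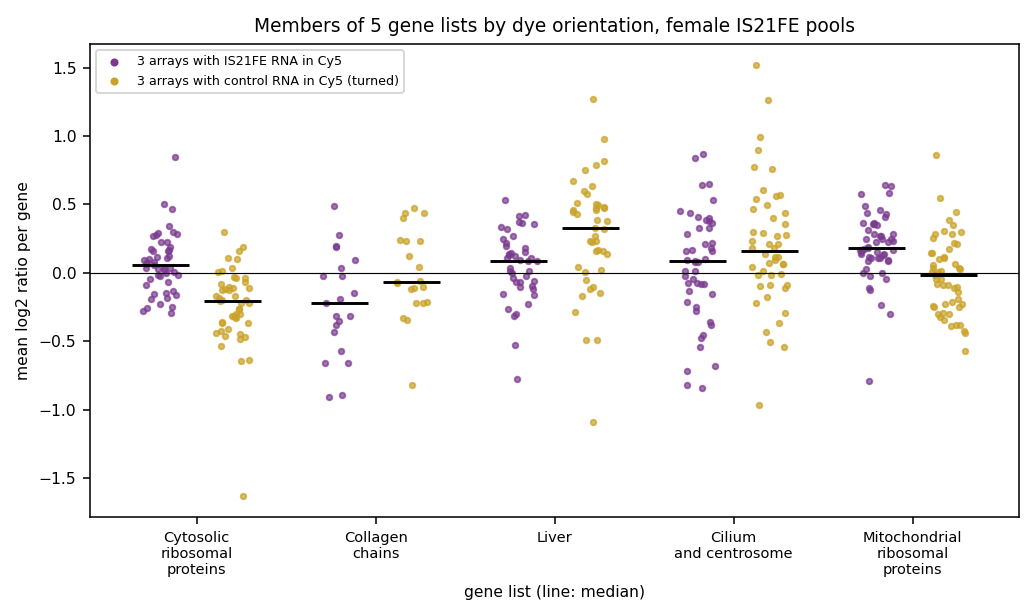
Mean log2 ratio of every tested member of 5 gene families on the 3 arrays with IS21FE RNA in Cy5 (purple) and the 3 arrays with control RNA in Cy5 after turning (yellow), in female IS21FE pools; lines are medians. The ribosomal families shift between orientations, whereas the medians of the liver and cilium families lie above 0 and that of the collagen family below 0 on both.

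Genes of patterning and signalling had ratios of both signs within a family. Of 12 HOX genes, HOXA5 (0.23 ± 0.13) and HOXB6 (0.19 ± 0.017) were positive and HOXB2 (-0.35 ± 0.098) and HOXD8 (-0.26 ± 0.076; SD, n = 3 each) were negative on all 6 arrays. The median of the HOX genes was 0.13, and -0.059 without the arrays that stood apart. SOX9, which drives cartilage formation, had 0.30, 0.35 and 0.57 in replicates 1, 2 and 3. FOXP4, a transcriptional repressor that acts in lung and gut development, was negative on all 6 arrays (-0.52 ± 0.057, SD, n = 3). In the TGF-beta and BMP family 26 of 39 genes were positive. BMP2, a ligand of bone and heart formation, was positive on all 6 arrays with 1.20, 0.24 and 0.63, its receptor BMPR1A had -0.82, -0.31 and -0.27, and SMAD6, an inhibitor of BMP signalling, had 0.54, 0.73 and 0.13. Of the WNT family 13 of 23 were positive, with the ligands WNT5B (0.34 ± 0.13) and WNT2B (0.29 ± 0.16) and the repressor TCF7L1 (-0.30 ± 0.035; SD, n = 3 each). In the hedgehog family the transcription factor GLI3 had 0.40 ± 0.18, while the signal transducer SMO was negative on all 6 arrays (-0.29 ± 0.13; SD, n = 3 each). GLI3 was at 0.11 without the arrays that stood apart. The median of the hedgehog family was -0.14 with those arrays and -0.25 without them. RICTOR, of the mTOR complex 2, was positive on all 6 arrays with 0.97, 0.84 and 0.50. In the growth hormone and IGF family 5 of 12 genes were positive, and the binding protein IGFBP3 had -0.32 ± 0.21 (SD, n = 3). The median of that family was -0.015, and -0.14 without the arrays that stood apart.

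Imprinted genes, which are read from the allele of a single parent, had no member of the same sign on all 6 arrays among 21 tested. Their median was 0.072, and -0.032 without the arrays that stood apart. Of all genes 4.04% were positive and 1.51% negative on all 6 arrays, so none among 21 is near that share. DLK1, a growth regulator, had 0.0031 ± 0.35 and MAGEL2, a regulator of ubiquitin ligases, 0.42 ± 0.43 (SD, n = 3 each). Regulators of DNA methylation and histones were positive in 29 of 46 genes, again with none of the same sign on all 6 arrays. CREBBP, an acetyltransferase, had 0.42 ± 0.23 and SETD1A, a methyltransferase of active promoters, 0.75 ± 0.62 (SD, n = 3 each). Genes of cell division were positive in 39 of 55, with MCM8, a helicase of recombination (0.53 ± 0.15), and CDK7, which activates other CDKs (0.26 ± 0.063; SD, n = 3 each), positive on all 6 arrays.

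Sterol and fatty acid synthesis was positive in 18 of 23 genes, with replicate medians of 0.14, -0.045 and 0.16 in replicates 1, 2 and 3. The median of this family was 0.10, and 0.018 without the arrays that stood apart. HSD17B7 (0.29 ± 0.12) was positive on all 6 arrays and NSDHL (-0.48 ± 0.40; SD, n = 3 each) was negative in its mean. Both act in late cholesterol synthesis. Glycolysis and hypoxia genes were positive in 11 of 25, with a median of -0.0090 that was 0.030 without the arrays that stood apart. In steroid synthesis, FDXR, which passes electrons to mitochondrial cytochromes P450, had 0.45 ± 0.17 (SD, n = 3). Among antioxidant genes the glutathione transferase GSTM3 was negative on all 6 arrays (-0.38 ± 0.18, SD, n = 3).

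Other families are given with some of their 4 members of smallest p. Of 124 solute carriers 80 were positive, with a median of 0.067 that was -0.018 without the arrays that stood apart. The sodium-calcium exchanger SLC8A3 (-0.57 ± 0.13) and the magnesium carrier SLC41A3 (-0.39 ± 0.13; SD, n = 3 each) were negative on all 6 arrays. Zinc finger genes of the KRAB and SCAN type were positive in 64 of 105, with a median of 0.058 that was 0.15 without those arrays. DNA repair genes were positive in 17 of 23, with ATR, a kinase of the replication checkpoint, positive on all 6 arrays (0.24 ± 0.10, SD, n = 3). Among RNA helicases DDX51, of ribosome assembly, had 1.20, 0.63 and 0.74 in replicates 1, 2 and 3. Of 21 neural genes 14 were positive, and the median of 0.041 was -0.049 without those arrays, while the adhesion molecule NCAM1 had -0.34 ± 0.18 (SD, n = 3). In the gonad family 10 of 17 genes were positive. Its members of the same sign on all 6 arrays were KITLG and PRDM1, positive, and HSD17B1, negative. AMHR2, the receptor of anti-Mullerian hormone, had -0.58 ± 0.20 (SD, n = 3), with 1 array positive. Of 12 retinoic acid genes 6 were positive, with a median of 0.0079 that was -0.086 without the arrays that stood apart. Of these genes RXRA had 0.63 ± 1.02 (SD, n = 3). ALDH1A3, which makes retinoic acid, was negative on all 6 arrays (-0.32 ± 0.10, SD, n = 3). In surface epithelium GRHL2, a transcription factor, was positive (0.34 ± 0.094) and ESRP1, a splicing factor, was negative (-0.53 ± 0.29; SD, n = 3 each) on all 6 arrays.

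Markers of tissues that could adhere to an embryo were examined as well. Of 17 tested genes of placenta and endometrium 6 were positive and 11 negative, with a median of -0.039 and replicate medians of 0.087, -0.13 and -0.039. The median was -0.14 without the arrays that stood apart. HSD17B1 is also a member of this family, and the trophoblast factor GCM1 had -0.17 ± 0.095 (SD, n = 3). The part of such tissue in the ratios was not tested, since ratios do not show levels. Of 30 leukocyte and antigen presentation genes 18 were positive, among them the histocompatibility gene SLA-3 (0.36 ± 0.18, SD, n = 3). Their median of 0.056 was -0.10 without the arrays that stood apart.

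**Figure D4:**
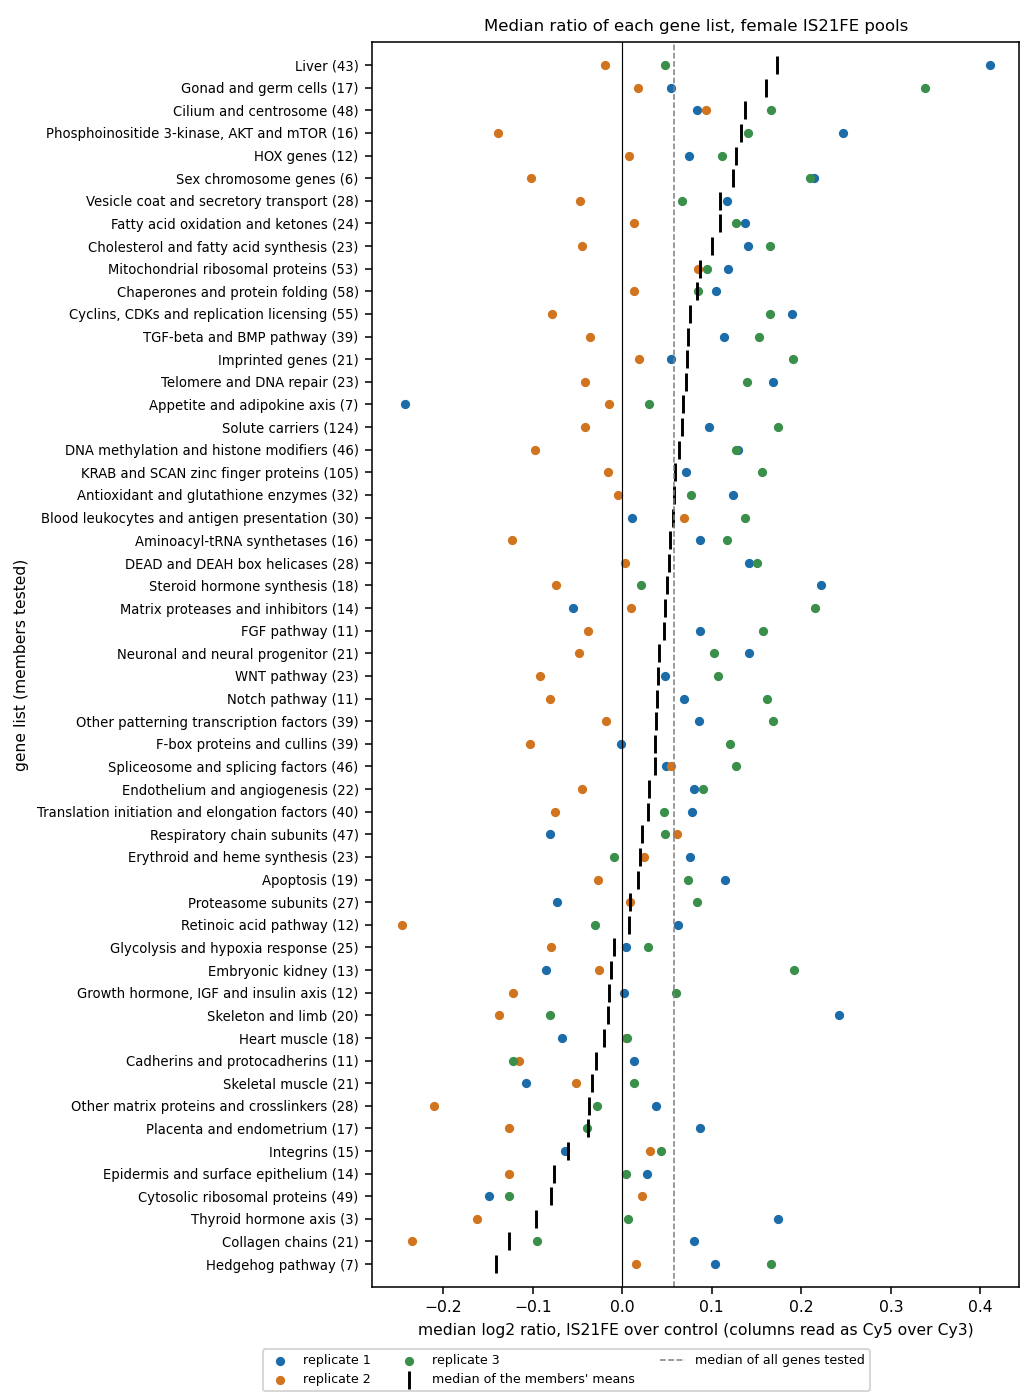
Median log2 ratio of each of the 54 gene families in female IS21FE pools, with the number of tested members. Coloured points are the medians of the 3 replicates, black bars the medians of the members' means and the dashed line the median of all genes (0.058); bars of 15 families lie below 0.

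Whether these ratios differ from those of the other strategy or the other sex was tested directly. Against female IS21SE pools, 0 of 7095 genes (0.0%) differed at an adjusted p of 0.05 in limma, with a lowest adjusted p of 1.0, and 206 (2.9%) lay at an unadjusted p under 0.05. Against male IS21FE pools, which by the labels came from the same IS21FE sows, but which were fitted without a term for the sow, 0 of 7137 genes (0.0%) differed, with a lowest adjusted p of 0.135, and 449 (6.29%) lay at an unadjusted p under 0.05. With no array turned, 62 genes passed in that comparison. Male arrays had SDs from 0.937 to 1.33 over their probes and female arrays from 0.620 to 0.890, so the sexes were set side by side on unlike scales. Of the 30 genes with the smallest p, 25 of 30 had the same sign in the mean of female IS21SE pools, against 66.5% of 7310 genes. That count is no independent check. An array of female IS21SE pools shared the pattern of the arrays that stood apart. Both female groups also shared the estimate of spread behind the choice of the 30. Some IS21SE means rested on few replicates, that of HSD17B1 on 1. In male IS21FE pools 18 of 28 had the same sign, against 53.9% of 7276 genes.

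Single genes showed the range of these cases. BHLHE22 averaged -1.14 ± 0.36 in female IS21FE pools and was at -1.39 in the single female IS21SE replicate measured. CSN1S1 averaged -0.92 ± 0.11 in female IS21FE pools and was at -0.95 in the single female IS21SE replicate measured. RIMKLA averaged 0.61 ± 0.19 in female IS21FE pools and 0.62 ± 0.19 in female IS21SE pools (SD, n = 3 each). COL8A2 averaged -0.86 ± 0.16 in female IS21FE pools and 0.15 ± 0.33 in female IS21SE pools (SD, n = 3 each). ASTN1 averaged 1.05 in female IS21FE pools (n = 3) and -0.72 in female IS21SE pools (n = 2). Neither of these 2 differences passed (adjusted p = 1.0 each in limma). GAS8, which had the smallest p between the sexes, averaged -0.61 ± 0.59 in female IS21FE pools and 2.40 ± 0.39 in male IS21FE pools (SD, n = 3 each; adjusted p = 0.135 in limma). PER2 had -0.69 ± 0.20 in female IS21FE pools (SD, n = 3) and -1.08 ± 1.24 in male IS21FE pools (SD, n = 2).

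**Figure D5:**
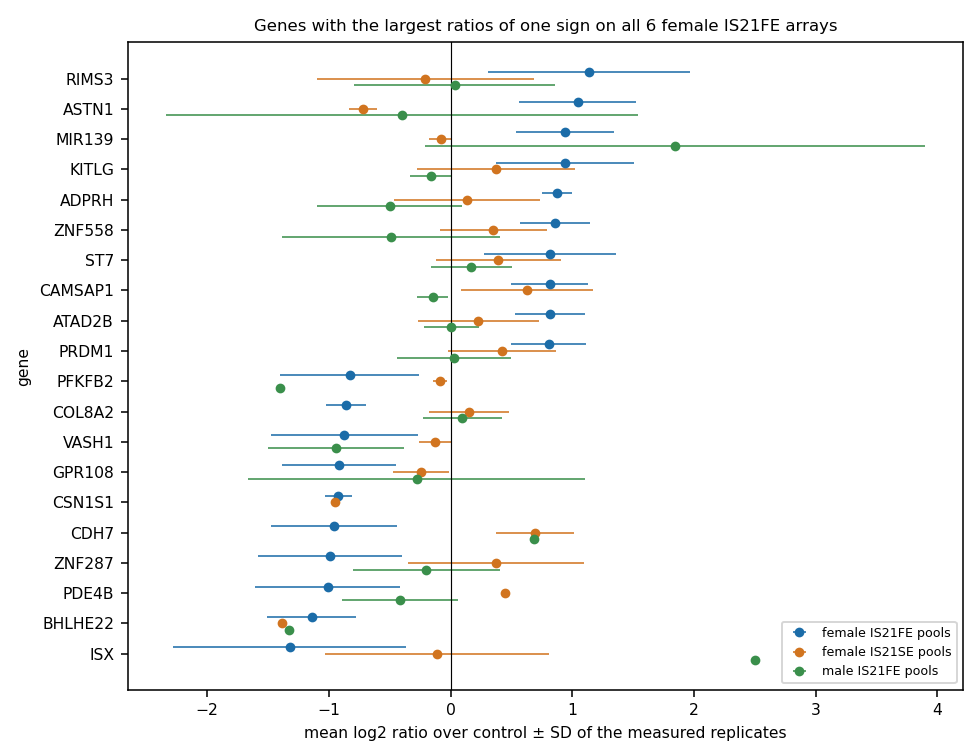
Mean log2 ratio over control of the 20 genes with the largest ratios of the same sign on all 6 female IS21FE arrays, in female IS21FE (blue), female IS21SE (orange) and male IS21FE pools (green). Bars are SDs over measured replicates and are absent where 1 replicate was measured; the genes were chosen on the blue values.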

How the data were processed

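Each array carried 43749 probes and compared labelled total RNA from an IS21FE and a control pool, per the labels. The authors' deposited values are taken to be log2 ratios. The sources used here do not give their log base, normalization, filters or direction, and depth has no counterpart beyond the number of arrays. Female IS21FE arrays held 31722 to 39314 values, 10.1% to 27.5% of probes being blank. Of the probes, 18109 carried 1 gene symbol in the platform annotation, 25640 carried none, and symbols were updated for 116 by accession and for 224 by synonym. Arrays with control RNA in Cy5 were multiplied by -1, the arrays of a replicate averaged, and probes complete on all 6 arrays averaged per symbol, which gave 7354 genes; 4551 symbols were not tested. Ratios were tested against 0 with limma 3.58.1 in R 4.3.3, both female groups sharing the estimate of spread, with Benjamini-Hochberg adjustment over all genes. The fit was also run on simulated ratios of independent noise with each gene's SD over replicates, without dye effects or shared array patterns. There 68.5% of 200 genes changed 2-fold and 93.5% of 200 genes changed 4-fold were recovered among 7354. Unchanged genes called numbered 10 and 12 in that order. These rates do not give the sensitivity on the real arrays, whose patterns were not simulated. The text names the 30 genes of smallest p, the 10 largest positive and 10 largest negative ratios of 1 sign on 6 arrays, and from each family up to 4 genes of smallest p. COL4A2, COL1A1, HPX, AFP, HBZ, ACTA1, MYOG, MYF6, TTC8, TTC17, HOXB6 and DLK1 were named after their values were seen. Members and families were chosen with earlier results of these data known. The alternatives covered orientation, dye, probes, scaling, weights, fit and each replicate left out.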

Additional observations from a re-analysis of the deposited data

How the results depend on the processing

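No alternative called a gene in female IS21FE pools against control; the lowest adjusted p among them was 0.0586, with no array turned. Against the 757 genes at an unadjusted p under 0.05, the count was 1849 with no array turned, 1140 from arrays with IS21FE RNA in Cy5 alone, 1529 from those with control RNA in Cy5 alone, 1472 with array weights, 2391 of 22339 when each probe was tested, and 413 to 875 when a replicate was left out. In a fit of single arrays with a dye term and the replicate as a block, the replicate block left 769 such genes and no called gene, with a consensus correlation of 0.10. As alternatives chosen after seeing the data, leaving out the arrays that stood apart gave 626, of which 337 were positive, and a term for them gave 566, of which 220 were positive. Separately, with values from single arrays kept, 469 of 1121 were positive, against 512 of 757. The difference from female IS21SE pools had 422 genes at an unadjusted p under 0.05 with no array turned and 446 with single-array values, against 206, and 172 to 252 with a replicate left out. The difference from male IS21FE pools had 62 called genes and 1430 at an unadjusted p under 0.05 with no array turned, against 0 and 449, and 321 to 640 with a replicate left out. With the replicate number as a block shared by the sexes, added after seeing the data, that difference had 468 and none called. The labels do not tie numbers to sows, and deviations of same-numbered female and male pools correlated at 0.18, 0.065 and 0.068, so not every pair passed 0.1. Of 55 medians of families and of all genes, 17 moved by more than their SD over replicates without the arrays that stood apart, 22 with a term for them and 22 with no array turned. Of 234 genes, 91, 52 and 196 moved in that order. The causes were not tested. The 3 replicates limit precision.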
